A study of Rattus norvegicus with 18 samples.

Results

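Transcripts of 9 membrane transporters that carry bile salts, phospholipids and sterols across the liver cell were followed in rat liver. The members are the 9 genes of the deposited table whose symbol is Slc10a1, Slco1b2, Slco1a1, Abcb11, Abcc2, Abcc3, Abcb4, Abcg5 or Abcg8, out of 33657 genes. Of these, 7 reached at least 1 FPKM (fragments per kilobase of transcript, scaled to the sequenced total) in at least 3 libraries and were tested with all other genes that did so. Abcc3 and Abcg8 stayed below 1 FPKM in all 18 libraries and are described from their reads.

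Bile forms when hepatocytes take bile salts up from portal blood across the basolateral (sinusoidal) membrane and pump them into the canaliculus. NTCP, encoded by Slc10a1, is the sodium-dependent uptake carrier, and the OATP carriers of Slco1b2 and Slco1a1 take up bile salts and many other organic anions without sodium. On the canalicular side BSEP (Abcb11) exports bile salts, MRP2 (Abcc2) exports conjugated anions such as bilirubin glucuronides, MDR2 (Abcb4) moves phosphatidylcholine to the outer leaflet, and Abcg5 and Abcg8 together form the exporter of cholesterol and plant sterols. MRP3 (Abcc3) is a basolateral exporter that is scarce in healthy rat liver.

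The libraries came from the liver of male rats aged 18 weeks, with 3 in each of 6 groups. Obese rats were fed plantain at a low, a medium or a high dose, or orlistat, a lipase inhibitor that acts in the gut and served as the positive control. The obese control and the healthy normal control were fed water. The labels do not give the strain, the way obesity was produced, the dose amounts, the kind or preparation of the plantain, or whether the 3 libraries of a group came from separate animals. The p-values are therefore measured against the spread among libraries alone, and part of it may be technical. Bulk liver was measured, so fewer cells of a type and less RNA per cell cannot be told apart.

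The reads recovered from the table ran from 16.6 to 26.2 M (mega) per library, with the 15 libraries of obese rats between 16.6 and 24.3 M and the 3 normal control libraries between 25.5 and 26.2 M. Hepatocyte markers were abundant throughout (summed level of 9 genes 79380 to 99050 FPKM over the 18 libraries), while the 8 bile duct markers summed to 19.9 to 26.3 FPKM, and 5 of these 8 (Krt7, Krt19, Sox9, Cftr and Slc10a2) were below 1 FPKM in all 18. Replicates lay close together: the coefficient of variation of the 7 tested transporters within a group was 0.0635% to 9.17% (median 1.63%), against a median of 6% over all 11945 genes tested. These medians are not matched for level, since each of the 7 had a higher mean FPKM than at least 84.5% of all genes. The deposited values carry a scale factor per library that differs between groups, and their sums over all genes differ between groups as well. Rescaling each library to TPM (a scale on which every library has the same sum) moved the median difference of all genes to 0.15 log2 units in the comparison of the high dose with the obese control, 0.14 in that of orlistat with the obese control, 0.11 in that of the high with the low dose, -0.10 in that of the low dose with orlistat and -0.11 in that of the obese with the normal control. On the deposited scale these medians lay within 0.01 of 0 in the comparisons of the high dose and of orlistat with the obese control and of the obese with the normal control. Where a transporter's difference that passed changed sign as TPM, the TPM value is given beside it.

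Promoter sequence was at hand for 7 of the 9 genes (not Abcb11 and Abcc3), in RefSeq windows of 300 bases from 250 before to 50 after the start, on build GRCr8. Abcg5 and Abcg8 lie head to head, and their starts are 205 bases apart. On this build Abcg5 is on the plus strand and Abcg8 on the minus strand, while in the table's own coordinates, given below, the strands are the other way round. Their windows share 295 bases, so a single stretch serves as the promoter window of both. It is shown on the plus strand, in the direction of Abcg5 (chr6:15717686-15717985), because the pair is followed together below, and the capitals mark the bases between the starts.
Abcg5 and Abcg8: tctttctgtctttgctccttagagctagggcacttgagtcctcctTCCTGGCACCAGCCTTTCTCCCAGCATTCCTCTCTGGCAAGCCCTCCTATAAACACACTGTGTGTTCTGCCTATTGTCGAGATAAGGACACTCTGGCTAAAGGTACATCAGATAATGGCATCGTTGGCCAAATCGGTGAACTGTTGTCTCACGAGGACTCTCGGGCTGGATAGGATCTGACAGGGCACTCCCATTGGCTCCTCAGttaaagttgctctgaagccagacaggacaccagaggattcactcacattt
The window of Abcc2 (chr1:252613625-252613924, plus strand) is shown because Abcc2 differed in all 15 pairs of groups on the deposited scale. The capitals mark its matches to AGGTCA, the core motif bound by several nuclear receptors, searched on both strands.
Abcc2: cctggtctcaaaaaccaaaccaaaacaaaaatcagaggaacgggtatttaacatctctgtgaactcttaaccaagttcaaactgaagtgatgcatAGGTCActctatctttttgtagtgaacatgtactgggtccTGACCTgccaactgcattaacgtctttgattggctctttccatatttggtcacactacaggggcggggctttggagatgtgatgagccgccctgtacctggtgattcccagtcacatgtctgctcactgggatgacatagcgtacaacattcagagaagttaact
The Abcc2 window holds 2 such motifs, the first at -155 on the plus strand and the second at -115 on the minus strand, counted from the start. The window of Slc10a1 holds 2 (-197 and -99), that of Slco1b2 holds 1 (-78), and those of Slco1a1, Abcb4, Abcg5 and Abcg8 hold 0. Of all 33469 promoter windows of this length, 16.2% hold at least 1. No member window holds a pair of these motifs as a direct repeat with 1 base between (AGGTCANAGGTCA), a direct repeat with 4 bases between (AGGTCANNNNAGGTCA) or an inverted repeat with 1 base between (AGGTCANTGACCT), which occur in 0.0538%, 0.00598% and 0.0269% of all windows. A match is a description of letters and not of binding.

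The first question was how the transporters differed between obese and normal rats without treatment. The row named Abcb4 was 2.99 times as high in obese as in normal livers, and it may also hold reads of neighbouring relatives, as described below. Slc10a1, Abcb11, Slco1a1 and Abcc2 were 10.1% to 17.0% lower. Of the 7 tested genes 6 passed an adjusted p of 0.05, 2 higher and 4 lower in obese livers. Of all genes tested, 55.1% passed, 26.7% as higher and 28.4% as lower. As TPM, 1973 genes were higher and 4569 lower in obese livers, against 3191 and 3387 on the deposited scale. Of the transporters, 1 was higher and 4 were lower as TPM. The median log2 difference was -0.15 over the 7 transporters (-0.28 as TPM).

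**Figure D1:**
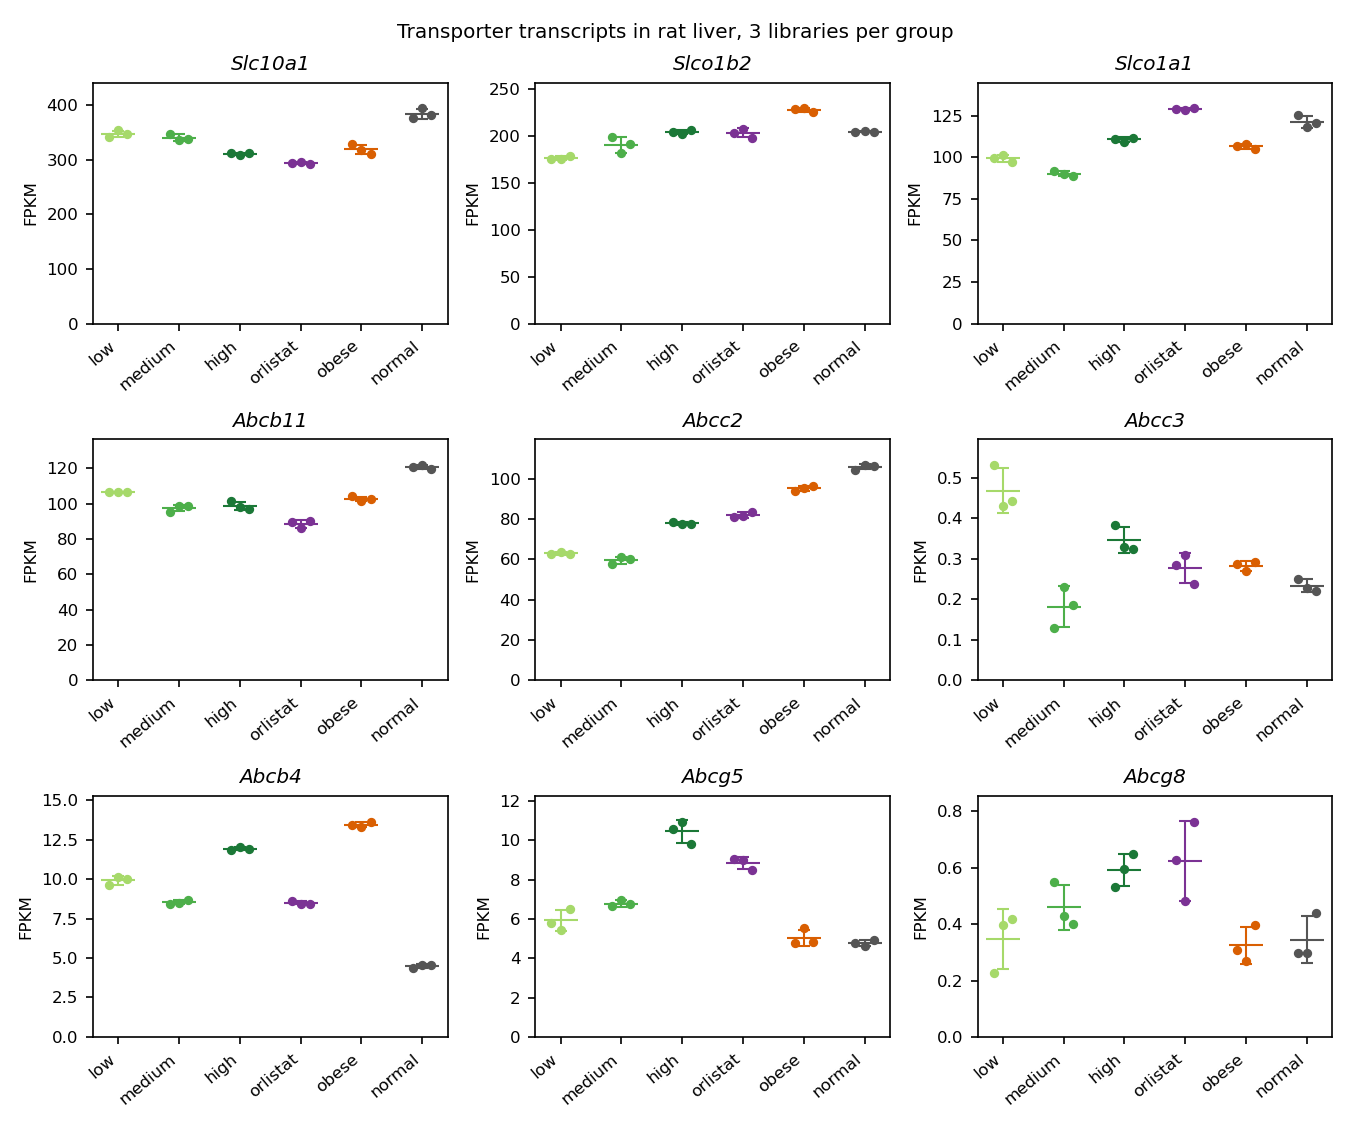
Level of each transporter (y axis, FPKM, from 0) in the 3 libraries of each group (x axis: low, medium and high dose of plantain, orlistat, obese control, normal control). Points are libraries, wide ticks are means and bars are SD. Abcb4 lies at 13.3 to 13.7 FPKM in the obese control and at 4.36 to 4.59 FPKM in the normal control, and Abcg5 is highest at the high dose (9.82 to 10.9 FPKM).

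Slc10a1 (NTCP; ENSRNOG00000005794, chromosome 6, 104617730 to 104631355, minus strand, in the table's own coordinates, whose rat build is not stated) was the most abundant of the 9, at a higher mean FPKM than 99.4% of all genes. It read 343, 354 and 348 FPKM at the low dose, 348, 336 and 339 FPKM at the medium dose and 312, 308 and 313 FPKM at the high dose. Orlistat livers had 293, 297 and 292 FPKM, against 328, 317 and 311 FPKM in the obese control and 376, 394 and 383 FPKM in the normal control. No treated library reached the lowest normal library. Slc10a1 was lower in the obese than in the normal control (log2 difference -0.27 ± 0.022, SE, adjusted p = 5.16e-08) and higher than the obese control at the low dose (0.13 ± 0.022, adjusted p = 0.000383) and the medium dose (0.09 ± 0.022, adjusted p = 0.00273). The libraries of the high dose overlapped those of the obese control (-0.04 ± 0.022, adjusted p = 0.18), and this sign turned on the TPM scale (0.14). With orlistat Slc10a1 was lower than in the obese control on the deposited scale (-0.12 ± 0.022, adjusted p = 0.000395) and higher as TPM (0.05), so its direction there depends on the scale. In the order of group means, the low and medium doses, and the obese control and the high dose, were neighbours that did not differ past the threshold (the medium against the low dose was -0.03, and 0.02 as TPM).

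Slco1b2 (ENSRNOG00000030538, chromosome 4, 175814118 to 175881768, plus strand) encodes the main OATP1B carrier of rodent liver. It read 175, 175 and 178 FPKM at the low dose, 199, 182 and 192 FPKM at the medium dose and 204, 202 and 207 FPKM at the high dose. Orlistat livers had 204, 208 and 198 FPKM, against 229, 229 and 225 FPKM in the obese control and 204, 205 and 204 FPKM in the normal control. The obese control thus had the highest level and the low dose the lowest, with no overlap between them. Against the obese control Slco1b2 fell by 0.37 at the low dose and by 0.26 at the medium dose on the log2 scale (SE 0.026 each, adjusted p = 3.15e-08 and 1.25e-06). Its lower values at the high dose (-0.16 ± 0.026, adjusted p = 0.000128) and with orlistat (-0.16 ± 0.026, adjusted p = 8.35e-05) were 0.02 and 0.01 as TPM. Neither sign turned under quantile normalization or in a fit to the recovered reads (voom). The rise in the obese over the normal control (0.15 ± 0.026, adjusted p = 0.000131) was 0.03 as TPM (adjusted p = 0.192). The high dose, orlistat and the normal control were neighbours in the order of means that did not differ past the threshold.

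Slco1a1 (ENSRNOG00000036984, chromosome 4, 176158640 to 176231344, minus strand) encodes OATP1A1, a carrier of bile salts and steroid conjugates that is high in male rodent liver. Orlistat livers had the most, with 129, 128 and 130 FPKM, against 107, 108 and 105 FPKM in the obese control (log2 difference 0.27 ± 0.023, adjusted p = 8.66e-08). The low dose had 99.7, 101 and 97.4 FPKM, the medium dose 91.7, 89.8 and 88.8 FPKM and the high dose 111, 109 and 112 FPKM, while the normal control had 125, 118 and 121 FPKM. The medium dose was therefore lowest, 15.5% under the obese control with no overlap (-0.24 ± 0.023, adjusted p = 4.98e-07). The low dose was lower as well (-0.10 ± 0.023, adjusted p = 0.00312), and the high dose did not pass (0.05 ± 0.023, adjusted p = 0.0593). As TPM the low dose did not pass (-0.06, adjusted p = 0.118) and the high dose did (0.23, adjusted p = 2.63e-06). Orlistat and the low and medium doses thus lay on opposite sides of the obese control for this carrier, and the differences of the medium dose (-0.51 ± 0.023) and of the low dose (-0.37 ± 0.023) from orlistat were tested directly (adjusted p = 2.12e-10 and 6.23e-09). The obese control was below the normal control (-0.19 ± 0.023, adjusted p = 4.76e-06). Summed over the 3 uptake carriers, levels were 624 ± 6.5 FPKM at the low dose, 622 ± 15.6 FPKM at the medium dose, 626 ± 6.1 FPKM at the high dose, 626 ± 6.3 FPKM with orlistat, 653 ± 11.3 FPKM in the obese control and 710.3 ± 6.7 FPKM in the normal control (SD, n = 3 libraries each). These sums are on the deposited scale. As TPM Slc10a1, Slco1b2 and Slco1a1 were 0.14, 0.02 and 0.23 above the obese control at the high dose. With orlistat they were 0.05, 0.01 and 0.44 above it, and Slco1b2 did not pass in either.

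**Figure D2:**
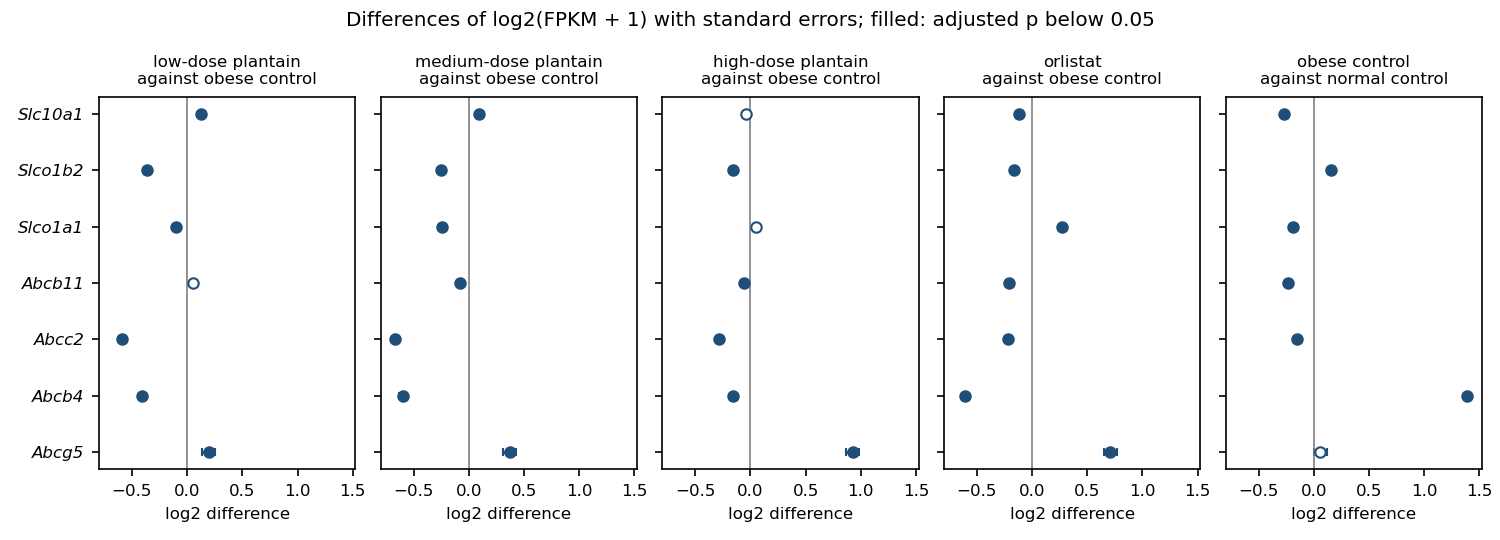
Difference of the 7 tested transporters (rows) in log2(FPKM + 1) for the 3 plantain doses and orlistat against the obese control and for the obese against the normal control (panels). Points are limma estimates, bars their SE, often smaller than the point, and filled points passed an adjusted p of 0.05. Abcc2 lies left of 0 in all 5 panels, and Abcb4 lies at 1.39 in the obese panel and left of 0 in the 4 treatment panels (at the high dose it is 0.01 as TPM).

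Abcb11 (BSEP; ENSRNOG00000050860, chromosome 3, 55480024 to 55587946, minus strand) is the bile salt export pump. It read 106, 106 and 107 FPKM at the low dose, 95.3, 98.5 and 98.3 FPKM at the medium dose and 101, 97.8 and 97.1 FPKM at the high dose. Orlistat livers had 89.6, 86.0 and 89.8 FPKM, against 104, 102 and 102 FPKM in the obese control and 121, 122 and 120 FPKM in the normal control. Every library of the 5 other groups lay under the lowest normal library. Abcb11 was lower with orlistat than in the obese control (-0.21 ± 0.022, adjusted p = 8.41e-07), a call that ended as TPM (-0.045, adjusted p = 0.264), and the obese control was below the normal control (-0.23 ± 0.022, adjusted p = 2.69e-07). The low dose did not pass against the obese control (0.05 ± 0.022, adjusted p = 0.0851), and did so as TPM (0.09, adjusted p = 0.0382). The differences of the medium dose (-0.08 ± 0.022, adjusted p = 0.011) and of the high dose (-0.06 ± 0.022, adjusted p = 0.0419) turned to 0.02 and 0.12 as TPM. Both calls ended in fits of the 2 groups alone (adjusted p = 0.0627 and 0.0968). The high-dose call also ended without obese control library 1 (adjusted p = 0.136), 2 (0.0508) or 3 (0.0696) and without high-dose library 2 (0.121) or 3 (0.149).

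Abcc2 (MRP2; ENSRNOG00000046727, chromosome 1, 263554453 to 263613252, plus strand) was lower than in both control groups after every treatment, and lowest at the low and medium plantain doses. It read 62.5, 63.7 and 62.7 FPKM at the low dose, 57.5, 61.0 and 60.1 FPKM at the medium dose and 78.7, 77.6 and 77.5 FPKM at the high dose. Orlistat livers had 81.0, 81.4 and 83.7 FPKM, against 94.2, 95.3 and 96.3 FPKM in the obese control and 105, 107 and 106 FPKM in the normal control. The groups did not overlap, and all 15 pairs of groups passed the threshold (12 as TPM). The other tested transporters passed in 12 to 14 pairs, and as TPM Abcg5 and Slco1a1 passed in more than Abcc2 (14 each). The share of all genes that pass in every pair, or whose groups do not overlap, is not given here. Neither result therefore sets Abcc2 apart from other genes, and the same holds wherever groups of another transporter are said not to overlap. Against the obese control the log2 difference was -0.59 ± 0.022 at the low dose (33.9% lower, adjusted p = 2.13e-11), -0.67 ± 0.022 at the medium dose (37.5% lower, adjusted p = 3.73e-12) and -0.29 ± 0.022 at the high dose (18.2% lower, adjusted p = 3.81e-08). Orlistat gave -0.21 ± 0.022 (13.9% lower, adjusted p = 9.87e-07), a call that ended as TPM (-0.05, adjusted p = 0.253), and the obese control differed from the normal control by -0.15 ± 0.022 (10.1% lower, adjusted p = 3.18e-05). The lower level did not deepen with dose: the high dose was 0.38 ± 0.022 above the medium dose (adjusted p = 9.19e-09) and 0.30 ± 0.022 above the low dose (adjusted p = 7.1e-08). The motifs marked in its window above are letters only, and no test ties them to these differences. The 2 canalicular pumps Abcb11 and Abcc2 together summed to 169.5 ± 0.66 FPKM at the low dose, 157 ± 3.6 FPKM at the medium dose, 177 ± 2.9 FPKM at the high dose, 170.5 ± 3.1 FPKM with orlistat, 198 ± 0.89 FPKM in the obese control and 227 ± 1.8 FPKM in the normal control (SD, n = 3 libraries each). These sums too are on the deposited scale. As TPM the high dose differed from the obese control by 0.12 for Abcb11 and by -0.11 for Abcc2.

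Abcc3 (MRP3; ENSRNOG00000002948, chromosome 10, 82047863 to 82117109, minus strand) was scarce, with 16 to 75 reads a library. It read 0.531, 0.431 and 0.442 FPKM at the low dose, 0.129, 0.231 and 0.186 FPKM at the medium dose and 0.382, 0.330 and 0.324 FPKM at the high dose. Orlistat livers had 0.284, 0.309 and 0.237 FPKM, against 0.286, 0.269 and 0.292 FPKM in the obese control and 0.250, 0.229 and 0.221 FPKM in the normal control. The low dose had the highest level of all groups and the medium dose the lowest mean. A test on the reads of all 21747 genes with any read (limma voom), chosen after the values were seen, put the low dose above the obese control (log2 difference 0.73 ± 0.17, adjusted p = 0.0041, where 17.9% of all genes passed) and the medium dose below it (-0.61 ± 0.21, adjusted p = 0.0477, where 23.1% passed). The medium-dose call ended without any 1 of 5 of the 6 libraries involved, and its value was -0.38 without medium-dose library 1 (adjusted p = 0.243). The medium dose was 1.34 ± 0.19 below the low dose on the log2 scale (adjusted p = 8.32e-05, where 13.1% of all genes passed). Orlistat (0.05 ± 0.19, adjusted p = 0.889) and the high dose (0.37 ± 0.18, adjusted p = 0.164) did not pass against the obese control, and neither did the obese against the normal control (0.22 ± 0.19, adjusted p = 0.424).

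Abcb4 (MDR2; ENSRNOG00000008012, chromosome 4, 22133521 to 22425515, minus strand), the phosphatidylcholine floppase, had the widest range of the 7 tested transporters. It read 9.62, 10.1 and 10.04 FPKM at the low dose, 8.44, 8.49 and 8.70 FPKM at the medium dose and 11.9, 12.03 and 11.9 FPKM at the high dose. Orlistat livers had 8.62, 8.45 and 8.44 FPKM, against 13.4, 13.3 and 13.7 FPKM in the obese control and 4.36, 4.57 and 4.59 FPKM in the normal control. All 12 treated libraries lay between the controls, overlapping neither. The obese control was above the normal control by 1.39 ± 0.029 (adjusted p = 2.65e-15). Against the obese control Abcb4 fell by 0.61 with orlistat, by 0.60 at the medium dose and by 0.41 at the low dose on the log2 scale (SE 0.029 each, adjusted p = 1.09e-10, 1.97e-10 and 2.88e-08). The high dose had the smallest difference (-0.16 ± 0.029, adjusted p = 0.000251), and as TPM it was 0.01 (adjusted p = 0.893). Each treated group stayed above the normal control, by 0.99 at the low dose, 0.79 at the medium dose, 1.23 at the high dose and 0.79 with orlistat (SE 0.029 each, adjusted p of 5.12e-12 or less). The medium dose and orlistat did not differ past the threshold (0.01 ± 0.029, adjusted p = 0.912; -0.065 as TPM, adjusted p = 0.175).

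The row named Abcb4 needs care. It spans 291995 bases with an exon length of 14132 bases, longer than 99.85% of the genes in the table, whose protein-coding genes have a median of 1865 bases. In the table its neighbours on chromosome 4 are Crot and Rundc3b, while in RefSeq GRCr8 Abcb1b and Abcb1a, which encode the drug exporters MDR1, lie between Abcb4 and Rundc3b. No row named Abcb1a or Abcb1b was analysed here. Whether the row also holds reads of these relatives cannot be told apart, so the values above belong to the row and may not be those of Abcb4 alone. Its FPKM is also divided by the whole exon length, so its level should not be ranked against the other genes.

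Abcg5 and Abcg8 encode the 2 subunits of the sterol exporter. Abcg5 (ENSRNOG00000005250, chromosome 6, 7935771 to 7961207, minus strand) read 5.79, 5.46 and 6.52 FPKM at the low dose, 6.63, 6.98 and 6.74 FPKM at the medium dose and 10.6, 10.9 and 9.82 FPKM at the high dose. Orlistat livers had 9.07, 9.001 and 8.47 FPKM, against 4.77, 5.52 and 4.82 FPKM in the obese control and 4.78, 4.65 and 4.92 FPKM in the normal control. All libraries of the high and medium doses and of orlistat lay above every control library, and those of the low dose overlapped the obese control. The high dose was 2.08 times the obese control (log2 difference 0.92 ± 0.059, adjusted p = 4.04e-09), orlistat 1.76 times (0.71 ± 0.059, adjusted p = 8.22e-08) and the medium dose 1.35 times (0.37 ± 0.059, adjusted p = 0.000122). The low dose passed with a small difference (0.20 ± 0.059, adjusted p = 0.0178), and that call ended without low-dose library 3 (adjusted p = 0.0964), obese control library 1 (0.0738) or obese control library 3 (0.0694), and in a fit of these 2 groups alone (0.102). The obese and normal controls did not differ past the threshold (0.06 ± 0.059, adjusted p = 0.416), and this small difference was -0.05 as TPM.

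Over the obese control and the low, medium and high doses, taken as equal steps, Abcg5 rose by 0.29 ± 0.019 log2 units a step (adjusted p = 3.54e-09). On the deposited scale it was the 1 transporter of the 7 whose trend was upward past the threshold, against 4 that were downward, while 52.5% of all genes tested passed, 26.5% as upward (3167 genes) and 26.0% as downward (3105 genes). As TPM these were 5228 and 1466 genes, and of the transporters 5 were upward and 1, Abcc2, downward. The trend of Slc10a1 did not pass on the deposited scale (-0.01, adjusted p = 0.104) and was upward as TPM (0.04, adjusted p = 8.7e-06), under quantile normalization (0.04, adjusted p = 0.000262) and with voom on the reads (0.01, adjusted p = 0.0308). That of Slco1a1 was upward as TPM as well (0.06, adjusted p = 1.93e-05). The trends of Abcc2 (-0.09 ± 0.0071 a step, adjusted p = 2.35e-08) and Abcb4 (-0.07 ± 0.0091, adjusted p = 1.5e-05) were downward, but their levels were lowest at the medium dose, so a straight line does not describe them, and as TPM they were -0.04 (adjusted p = 0.00756) and -0.01 (adjusted p = 0.308). The downward trends of Slco1b2 (-0.04, adjusted p = 0.00193) and Abcb11 (-0.03, adjusted p = 0.00207) turned upward as TPM (0.02 and 0.03). Each step of Abcg5 was also tested: the medium dose was 0.17 ± 0.059 above the low dose (adjusted p = 0.0477), and the high dose 0.56 ± 0.059 above the medium dose (adjusted p = 7.3e-06).

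Abcg8 (ENSRNOG00000005420, chromosome 6, 7961413 to 7980708, plus strand), whose start lies 205 bases from that of Abcg5 in the table as well, had 26 to 79 reads a library. It read 0.225, 0.398 and 0.419 FPKM at the low dose, 0.551, 0.429 and 0.401 FPKM at the medium dose and 0.533, 0.596 and 0.648 FPKM at the high dose. Orlistat livers had 0.628, 0.482 and 0.764 FPKM, against 0.307, 0.269 and 0.398 FPKM in the obese control and 0.299, 0.296 and 0.441 FPKM in the normal control. The libraries of the high dose, the medium dose and orlistat all lay above those of the obese control, as for Abcg5. In the test on reads Abcg8 was higher than the obese control with orlistat (1.05 ± 0.25, adjusted p = 0.00317, where 29.4% of all genes passed) and at the high dose (0.96 ± 0.25, adjusted p = 0.00709, where 29.1% passed). The high-dose call was at an adjusted p of 0.0502 without obese control library 2. The medium dose (0.57 ± 0.26, adjusted p = 0.139), the low dose (0.07 ± 0.28, adjusted p = 0.952) and the obese against the normal control (-0.14 ± 0.27, adjusted p = 0.73) did not pass. In every library Abcg5 had 11.1 to 25.7 times the FPKM of Abcg8, although the proteins act as a pair. FPKM is divided by exon length, which is 2470 bases for Abcg5 and 4895 bases for Abcg8, so the gap is smaller in reads. High-dose library 1, for example, had 491 reads of Abcg5 and 49 of Abcg8. The table gives no reason for the gap that remains in reads, and no source used here says how reads were assigned where the starts are close.

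**Figure D3:**
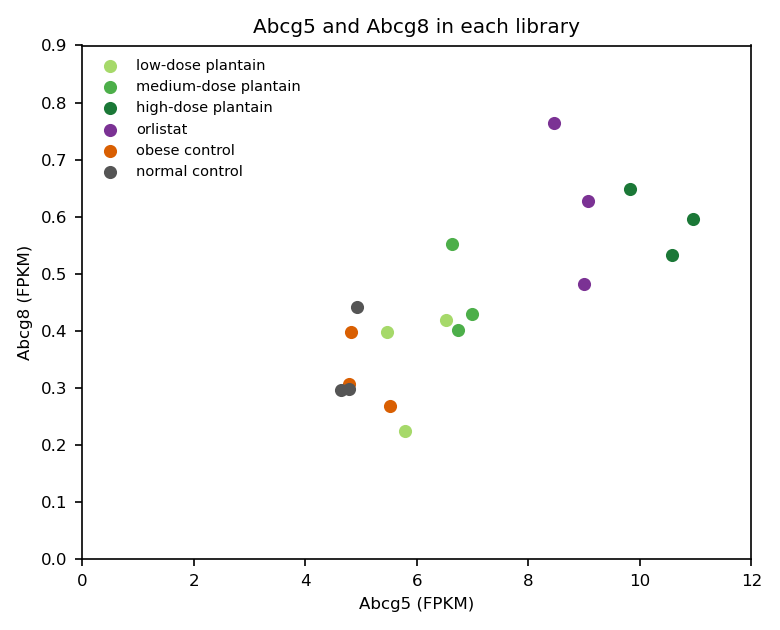
Abcg5 (x axis, FPKM) against Abcg8 (y axis, FPKM) in each of the 18 libraries, both axes from 0, coloured by group. The high-dose and orlistat libraries lie at the upper right (Abcg5 8.47 to 10.9 FPKM), and the obese and normal control libraries at the lower left (Abcg5 4.65 to 5.52 FPKM).

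Counted together, the transporters passed as follows against the obese control. At the low dose 6 of 7 passed, 2 higher and 4 lower, where 33.0% of all genes tested passed (18.3% higher, 14.8% lower). At the medium dose all 7 passed, 2 higher and 5 lower, where 41.9% of all genes passed (21.8% higher, 20.1% lower). At the high dose 5 passed, 1 higher and 4 lower, where 51.9% of all genes passed (26.6% higher, 25.3% lower). With orlistat all 7 passed, 2 higher and 5 lower, where 51.8% of all genes did (26.2% higher, 25.6% lower). As TPM the calls over all genes leaned upward, with 2675 higher and 1302 lower at the low dose, 3748 and 1440 at the medium dose, 5176 and 1476 at the high dose and 4989 and 1566 with orlistat. Of the transporters, as TPM 3 were higher and 3 lower at the low dose, 2 and 4 at the medium dose, 4 and 1 at the high dose (Abcc2 the lower one) and 3 and 1 with orlistat (Abcb4 the lower one). The median log2 difference of the 7 was -0.10 at the low dose, -0.24 at the medium dose, -0.06 at the high dose and -0.16 with orlistat, against -0.01 to 0.01 over all genes in these comparisons. As TPM the medians of the 7 were -0.06, -0.15, 0.12 and 0.01 in the same order. At the high dose the median was 0.01 under quantile normalization and 0.02 with voom on the recovered reads. With orlistat it was -0.03 and -0.08, so there the sign turned as TPM only. These comparisons share the obese control libraries and are not independent. Against the normal control 7 passed at the low dose (2 higher, 5 lower; 47.8% of all genes), 7 at the medium dose (2 higher, 5 lower; 45.3%), 6 at the high dose (2 higher, 4 lower; 42.4%) and 6 with orlistat (3 higher, 3 lower; 44.1%). In all 4 of them Abcb4 and Abcg5 were the genes that were higher, joined with orlistat by Slco1a1 (0.09 ± 0.023, adjusted p = 0.0064).

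The doses also differed among themselves. All 7 transporters passed an F-test of equal levels at the 3 doses, where 38.4% of all genes did. The high against the low dose gave 7 calls, 5 higher (Abcg5, Abcc2, Abcb4, Slco1b2 and Slco1a1) and 2 lower (Slc10a1 and Abcb11), where 32.7% of all genes passed, and the Abcb11 difference (-0.11) was 0.03 as TPM. On that scale 5 were higher and 0 lower, since the Slc10a1 and Abcb11 calls ended (adjusted p = 0.281 and 0.554). The high dose also differed from orlistat in 6 of 7, where 15.1% of all genes passed: Abcb4 was 0.45 ± 0.029 higher (adjusted p = 2.72e-08), Abcg5 0.22 ± 0.059 higher (adjusted p = 0.021) and Slco1a1 0.22 lower (-0.22 ± 0.023, adjusted p = 6.03e-06).

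Genes that make bile acids from cholesterol were set beside the transporters. Counts for the gene and marker lists here and below are to be read against the share of all genes tested that passed. Against the obese control it was 33.0% at the low, 41.9% at the medium and 51.9% at the high dose and 51.8% with orlistat. Between the obese and the normal control it was 55.1%. Cyp7a1, the rate-limiting enzyme of the classical pathway, had 46.8 ± 1.3 FPKM at the low dose, 41.9 ± 2.1 FPKM at the medium dose, 44.3 ± 0.97 FPKM at the high dose and 66.3 ± 0.27 FPKM with orlistat, against 19.0 ± 0.12 FPKM in the obese control and 33.6 ± 0.56 FPKM in the normal control (SD, n = 3 each). Every treated group had a higher mean than both controls. Its log2 differences from the obese control were 1.26 at the low, 1.10 at the medium and 1.18 at the high dose and 1.75 with orlistat (SE 0.032 each, adjusted p of 8.37e-13 or less). Of the 16 listed genes of bile acid synthesis and conjugation, all tested, 11 were higher and 3 lower at the low dose than in the obese control, 12 and 3 at the medium dose, 11 and 3 at the high dose and 9 and 4 with orlistat. As TPM the counts were 12 and 1, 13 and 2, 13 and 0, and 12 and 1. In the obese against the normal control 4 were higher and 11 lower (median -0.19), with Akr1d1, the bile acid pathway 5-beta reductase, at -0.80 ± 0.023 and the 12-alpha hydroxylase Cyp8b1 at 1.09 ± 0.021 (adjusted p = 1.54e-13 and 1.63e-15). Akr1d1 was 0.74 ± 0.023 above the obese control at the low dose and 0.64 ± 0.023 at the high dose, and the bile acid ligase Slc27a5 was 0.48 ± 0.017 and 0.35 ± 0.017 above it (all adjusted p of 1.45e-10 or less).

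Of 29 listed genes of other liver transporters 20 were tested. Against the obese control 9 were higher and 5 lower at the low dose, 10 and 6 at the medium dose, 13 and 3 at the high dose and 11 and 4 with orlistat, and between the obese and the normal control 8 were higher and 9 lower. As TPM the counts were 10 and 4, 13 and 3, 17 and 2, 14 and 2, and 5 and 10. Slco2a1, a prostaglandin carrier, was higher after each treatment, by 0.32 at the low, 0.53 at the medium and 0.49 at the high dose and by 0.45 with orlistat (SE 0.019 each, adjusted p of 3.07e-09 or less). Slco1a4, the gene of another OATP carrier of bile salts, was 0.66 lower in the obese than in the normal control (-0.66 ± 0.023, adjusted p = 1.9e-12) and 0.47 ± 0.023 above the obese control at the medium dose (adjusted p = 2.89e-10). Slc10a5, a relative of Slc10a1, was 1.08 ± 0.087 higher with orlistat (adjusted p = 5.29e-08). It was also higher at the low dose (0.32), the medium dose (0.58) and the high dose (0.895; SE 0.087 each, adjusted p of 0.00912 or less). In the obese control it was lower than in the normal control (-0.88 ± 0.087, adjusted p = 4.4e-07). Abcc6, an exporter of the MRP family, was lower at the low dose (-0.41 ± 0.031) and at the high dose (-0.43 ± 0.031), as Abcc2 was (adjusted p = 4.67e-08 and 1.25e-08). Its fall was smallest at the medium dose (-0.21 ± 0.031, adjusted p = 4e-05), where that of Abcc2 was largest. Unlike Abcc2, Abcc6 was higher in the obese than in the normal control (0.25 ± 0.031, adjusted p = 4.4e-06).

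**Figure D4:**
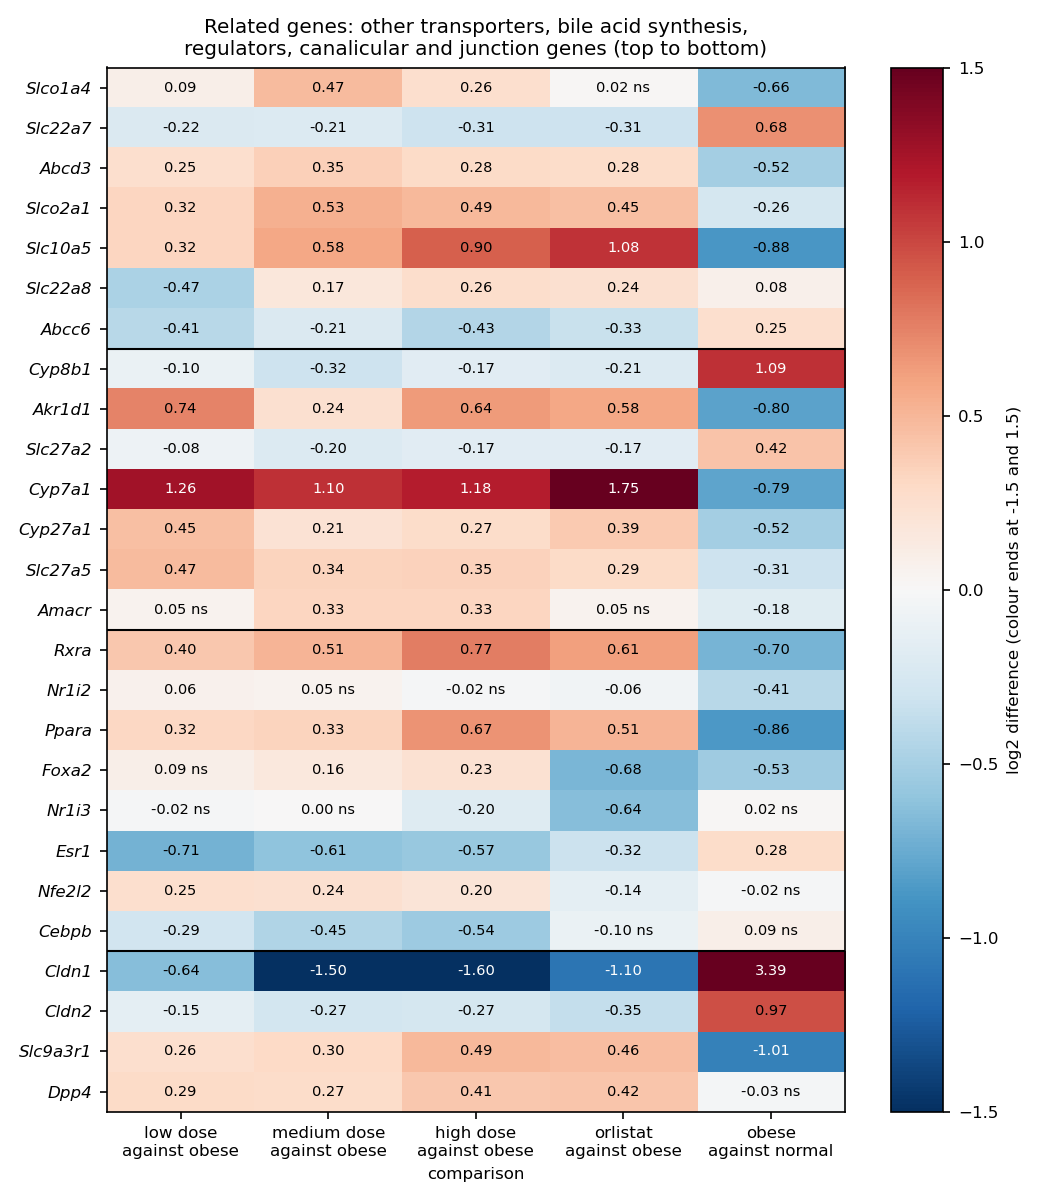
Log2 differences (numbers in cells; red higher, blue lower) of the genes with the smallest adjusted p of each list (rows) in the 5 comparisons (columns); ns marks values that did not pass. Cyp7a1 is at 1.10 to 1.75 in the 4 treatment columns and at -0.79 in the obese column, and Rxra at 0.40 to 0.77 and -0.70.

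Among 19 tested nuclear receptors and regulators, 7 were higher and 4 lower at the low dose than in the obese control, 7 and 6 at the medium dose, 6 and 8 at the high dose and 5 and 11 with orlistat. As TPM the counts were 7 and 4, 10 and 5, 11 and 4, and 8 and 4, so the balance turned at the high dose and with orlistat. In the obese against the normal control 6 were higher and 9 lower (4 and 10 as TPM). Rxra, the partner of many of these receptors, was lower in the obese than in the normal control (-0.70 ± 0.033, adjusted p = 6.13e-11) and higher than the obese control at the low dose (0.40 ± 0.033), the medium dose (0.51 ± 0.033), the high dose (0.77 ± 0.033) and with orlistat (0.61 ± 0.033; adjusted p of 1.72e-07 or less). Nr1i2, the pregnane X receptor, was lower in the obese control (-0.41 ± 0.021, adjusted p = 1.67e-10). Of 20 canalicular scaffold, trafficking and junction genes, 8 were higher and 5 lower in the obese than in the normal control. Against the obese control the counts were 5 and 3 at the low dose, 6 and 5 at the medium dose, 8 and 4 at the high dose and 9 and 3 with orlistat. As a share of this list, these calls lay not far above the shares of all genes given above. Slc9a3r1, which encodes a scaffold that anchors apical membrane proteins, was lower in the obese than in the normal control (-1.01 ± 0.035, adjusted p = 1.18e-12) and 0.49 ± 0.035 above the obese control at the high dose (adjusted p = 1.48e-08). It was also above the obese control at the low dose (0.26), the medium dose (0.30) and with orlistat (0.46; SE 0.035 each, adjusted p of 3.43e-05 or less). Cldn1, a tight junction gene, was 3.39 ± 0.070 higher in the obese than in the normal control (adjusted p = 2.64e-15). From the obese control it fell by 0.64 at the low dose, by 1.5 at the medium dose, by 1.6 at the high dose and by 1.10 with orlistat on the log2 scale (SE 0.070 each, adjusted p of 3.69e-06 or less). Its means of 9.68 to 19.8 FPKM in the treated groups lay between those of the obese control (31.3 FPKM) and the normal control (2.09 FPKM). As TPM the junction list counted 5 higher and 10 lower in the obese against the normal control, and against the obese control 6 and 2, 9 and 3, 11 and 3, and 14 and 2 in the same order of doses and orlistat. In the comparisons by which they were named, the named genes kept their sign on the TPM scale and under quantile normalization.

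For the 3 transporters whose highest group mean was at least 1.5 times the lowest among those tested, the genes with the nearest pattern were looked up as the smallest root mean square difference between centred log2 means of the 6 groups. For Abcg5 they were Lifr (0.0873), a cytokine receptor gene, and Sez6 (0.0981). Lifr had 4.54 ± 0.34 FPKM at the low dose, 5.84 ± 0.76 FPKM at the medium dose, 7.68 ± 0.47 FPKM at the high dose and 8.0 ± 0.66 FPKM with orlistat, against 4.19 ± 0.077 FPKM in the obese control and 3.83 ± 0.035 FPKM in the normal control (SD, n = 3 each). For Abcb4 they were Apoa1 (0.138), the main apolipoprotein of HDL, and the water channel gene Aqp8 (0.139). Aqp8 had 78.3 ± 2.0 FPKM at the low dose, 74.6 ± 0.40 FPKM at the medium dose, 81.4 ± 1.2 FPKM at the high dose and 64.0 ± 2.6 FPKM with orlistat, against 90.5 ± 2.2 FPKM in the obese control and 43.4 ± 1.6 FPKM in the normal control. For Abcc2 they were Gbp7 (0.0488), of the guanylate binding proteins, and the chemokine gene Cxcl14 (0.0947), both at 1.31 to 4.93 FPKM as group means. The distances use log2(FPKM + 1), which understates the folds of genes this low, so the match to Abcc2 holds on that scale only. Cxcl14 also varied among replicates, with 1.35 ± 0.44 FPKM at the low dose and 2.79 ± 0.32 FPKM in the normal control. Among the other transporters the nearest to Abcg5 and to Abcc2 was Slco1a1, at the larger distances of 0.37 and 0.204.

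Markers of other liver cells differed between the groups as well. The summed level of 9 Kupffer cell markers (none at 0) was 385 to 397 FPKM at the low dose, 252 to 259 FPKM at the medium dose, 257 to 261 FPKM at the high dose and 317 to 337 FPKM with orlistat, against 304 to 314 FPKM in the obese control and 181 to 182 FPKM in the normal control. All 9 were higher in the obese than in the normal control, and against the obese control 8 were higher and 0 lower at the low dose, 0 and 8 at the medium dose, 0 and 8 at the high dose and 2 and 1 with orlistat. The summed level of 6 sinusoidal endothelial markers (none at 0) was 78.6 to 80.5 FPKM at the low dose, 81.5 to 82.3 FPKM at the medium dose, 95 to 95.3 FPKM at the high dose and 83.1 to 84.4 FPKM with orlistat, against 56.3 to 58.4 FPKM in the obese control and 42.2 to 43.0 FPKM in the normal control. Its rank order of groups thus begins with the high dose and orlistat and ends with the obese and normal controls, as for Abcg5. Against the obese control 5 of the 6 were higher and 0 lower at each dose, and 5 were higher and 1 lower with orlistat. The 8 bile duct markers summed to 24.4 to 25.7 FPKM at the low dose, 23.8 to 25.4 FPKM at the medium dose, 24.9 to 26.3 FPKM at the high dose and 24.6 to 25.7 FPKM with orlistat, against 19.9 to 21.7 FPKM in the obese control and 22.6 to 24.2 FPKM in the normal control. Of these 8, 2 could be tested, and both were higher than the obese control after all 4 treatments (median log2 difference 0.18 to 0.28). The 8 markers of hepatocytes near the central vein summed to 1210 to 1232 FPKM at the low dose, 1031 to 1095 FPKM at the medium dose, 1231 to 1235 FPKM at the high dose and 1614 to 1636 FPKM with orlistat, against 941 to 961 FPKM in the obese control and 1178 to 1194 FPKM in the normal control. These sums do not describe the single markers: of the 7 tested, 2 were higher and 1 lower than the obese control at the low dose (median log2 difference 0.05), 1 and 2 at the medium dose (-0.06), 3 and 2 at the high dose (0.06) and 3 and 2 with orlistat (-0.0043). The 9 hepatocyte markers summed to 79380 to 85150 FPKM with orlistat, 96720 to 99050 FPKM in the obese control and 85050 to 90500 FPKM in the normal control. Against the obese control 2 of them were higher and 3 lower at the low dose, and 3 and 6 at the medium dose. The high dose counted 3 and 5, and orlistat 3 and 6. For 8 markers of hepatocytes near the portal vein the counts were 3 and 2, 5 and 2, 4 and 2, and 6 and 1 in the same order. The part of cell composition and of zonation in the transporter differences was not tested.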

How the data were processed

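The authors deposited 1 table of FPKM for 33657 genes and 18 libraries, with symbols, coordinates and exon lengths per the file headers. CASAVA 1.7, Bowtie 0.12.2 and mm8, a mouse build, are named in the submitters' processing notes, while the table's identifiers are rat; no source used here gives the rat build or the strand setting of the counting. FPKM times exon length fell on whole steps for all genes (tolerance 0.001), which gave the reads per library (16.6 to 26.2 M, for mega). The authors' FPKM also carry a scale factor per library of 0.977 ± 0.010 at the low dose, 1.014 ± 0.014 at the medium dose, 1.028 ± 0.0025 at the high dose, 1.036 ± 0.012 with orlistat, 0.974 ± 0.005 for the obese control and 1.008 ± 0.011 for normal controls (SD, n = 3 each), so it cannot be told apart from group.

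Values were compared as log2(FPKM + 1) for 11945 genes (at least 1 FPKM in 3 or more libraries), with limma 3.58.1 (R 4.3.3; mean-variance trend) in 1 fit of all 6 groups, two-sided, with Benjamini-Hochberg adjustment over all genes and a threshold of 0.05. A fold on this scale understates changes of low genes. With 3 against 3 libraries an exact permutation test cannot go below p = 0.1. The procedure was tested on simulated data. The members and the gene lists were chosen with earlier results of these data known. Genes beyond the members were named by a rule: up to 3 per list with the smallest adjusted p in each of the 5 comparisons, and for Abcc2, Abcb4 and Abcg5 the 2 genes of nearest pattern, with clone and RNA family names left out (decided once values were known). The test on reads without a filter, for Abcc3 and Abcg8, was also chosen after seeing the data. Alternatives were another pseudocount (0.1), 2 other filters, TPM, quantile normalization, voom on the recovered reads, only the groups compared, a replicate block and leaving out each library. No 2 libraries of a group agreed within sampling noise (chi-square per gene with a mean of 2.99 to 6.18 and a median of 0.674 to 1.07, where sampling alone gives 1 and 0.455), so none was treated as a library deposited more than once. This does not show that they came from separate animals. Protein sequences were not used here.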

Additional observations from a re-analysis of the deposited data

How the results depend on the processing

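Of 63 differences of the 7 tested transporters (9 comparisons), all 63 kept direction and call with a pseudocount of 0.1, without the filter on low values and with at least 1 FPKM in all libraries, and 59 did with only the groups compared (4 lost the call: Abcg5 at the low dose and Abcb11 at the medium and high doses against the obese control, and Slco1b2 at the medium dose against the normal control). Rescaling to TPM ended 4 calls, added 2 and turned the sign of 8 differences that passed on at least 1 of the scales. With orlistat against the obese control Slc10a1 became 0.0533 and Slco1b2 0.00513. At the medium dose against the obese control Abcb11 became 0.0173, and at the high dose Slc10a1 became 0.142, Slco1b2 0.0208, Abcb11 0.121 and Abcb4 0.00615. At the high dose against the normal control Slco1b2 became 0.0512. The transporters called for orlistat against the obese control were 4 as TPM, against 7. Quantile normalization ended 2 calls, added 2 and turned 4: Slc10a1 with orlistat (0.0903) and at the high dose (0.108) and Abcb11 at the high dose (0.00963) against the obese control, and Slco1b2 with orlistat against the normal control (0.0742). Voom on the recovered reads ended 2 calls, added 1 and turned Abcb11 at the high dose (0.0219). The turned differences were all under 0.17 in size on the deposited scale, and the cause was not tested; the differences of Abcc2 and Abcg5 that passed kept their direction under every setting. Of 378 refits that left out 1 library, 370 kept the call and 8 lost it, those given beside Abcg5 at the low dose and Abcb11 at the high dose. The replicate block changed the call of 1 of the 63 (Abcb11 at the high dose against the obese control, adjusted p = 0.0553). The numbers of the labels showed no pairing: the correlation of deviations between same-numbered libraries was -0.0925 to 0.0663 over 45 pairs, and 4 of 18 libraries correlated best with one of their own number. Reads of Abcc3 and Abcg8 (16 to 79 a library) limit what can be seen for these genes.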
